A study of Mus musculus with 12 samples.

Results

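Myelin is the multilayered membrane that oligodendrocytes wrap around axons in the brain and spinal cord. Its compacted layers are held together by positively charged proteins such as the product of Mbp, its surfaces carry adhesion molecules and its lipid rafts carry small membrane proteins. Transcription of these genes rises steeply when a precursor becomes a mature oligodendrocyte, and the factors encoded by Sox10, Nkx6-2 and Myrf act in that step. White matter and the oligodendrocytes in it are a known site of damage after brain trauma, and precursors divide and differentiate around a lesion.

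Described here are 9 myelin genes of mature oligodendrocytes, namely Mbp, Mobp, Mog, Mag, Cnp, Mal, Opalin, Ermn and Cldn11. They were chosen by symbol, with earlier results of these data known. All 9 were found by Ensembl identifier in both deposited count tables, among 35697 identifiers in the table of 2018 and 55637 in that of 2022 (55638 in either). The mice were adult male C57BL/6J animals, with 3 in each of 4 groups, and RNA came from brain. In the 2018 batch, sham mice, which had the surgery without the blow, were compared with mice at 7 days after controlled cortical impact (CCI), a model of traumatic brain injury (TBI) in which a piston strikes the exposed cortex. In the 2022 batch every mouse was injured, and 3 that are labelled only as TBI were compared with 3 that received zileuton, an inhibitor of 5-lipoxygenase, given intraperitoneally every day (10 mg per kg, with corn oil as the solvent). The study describes the mice compared with zileuton as vehicle-treated, which the labels do not state. It describes the tissue of injured mice as pericontusional. The names of the zileuton libraries give 7 days, whereas the source labels of 2 of them give 8 and 9 days, and the columns of the 2022 tables, numbered 2, 3 and 6 in both groups, are tied by name to a group but not to a single mouse.

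Libraries held 42929862 to 48684674 counts in 2018 and 27845562 to 35453257 in 2022. Opalin, the gene with the fewest counts, had 357 or more in every library. The oligodendrocyte label was checked against the genes that define Schwann cells, the myelinating cells of peripheral nerve. Prx, which encodes periaxin of peripheral myelin, lay between 0.138 and 0.439 FPKM (scaled for gene length) in 2018, where Mbp lay between 284 and 611 FPKM, and neither Pmp2 nor Dhh passed the expression filter. In bulk tissue, fewer cells of a type and less RNA per cell cannot be told apart, and the same holds for rises.

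**Figure D1:**
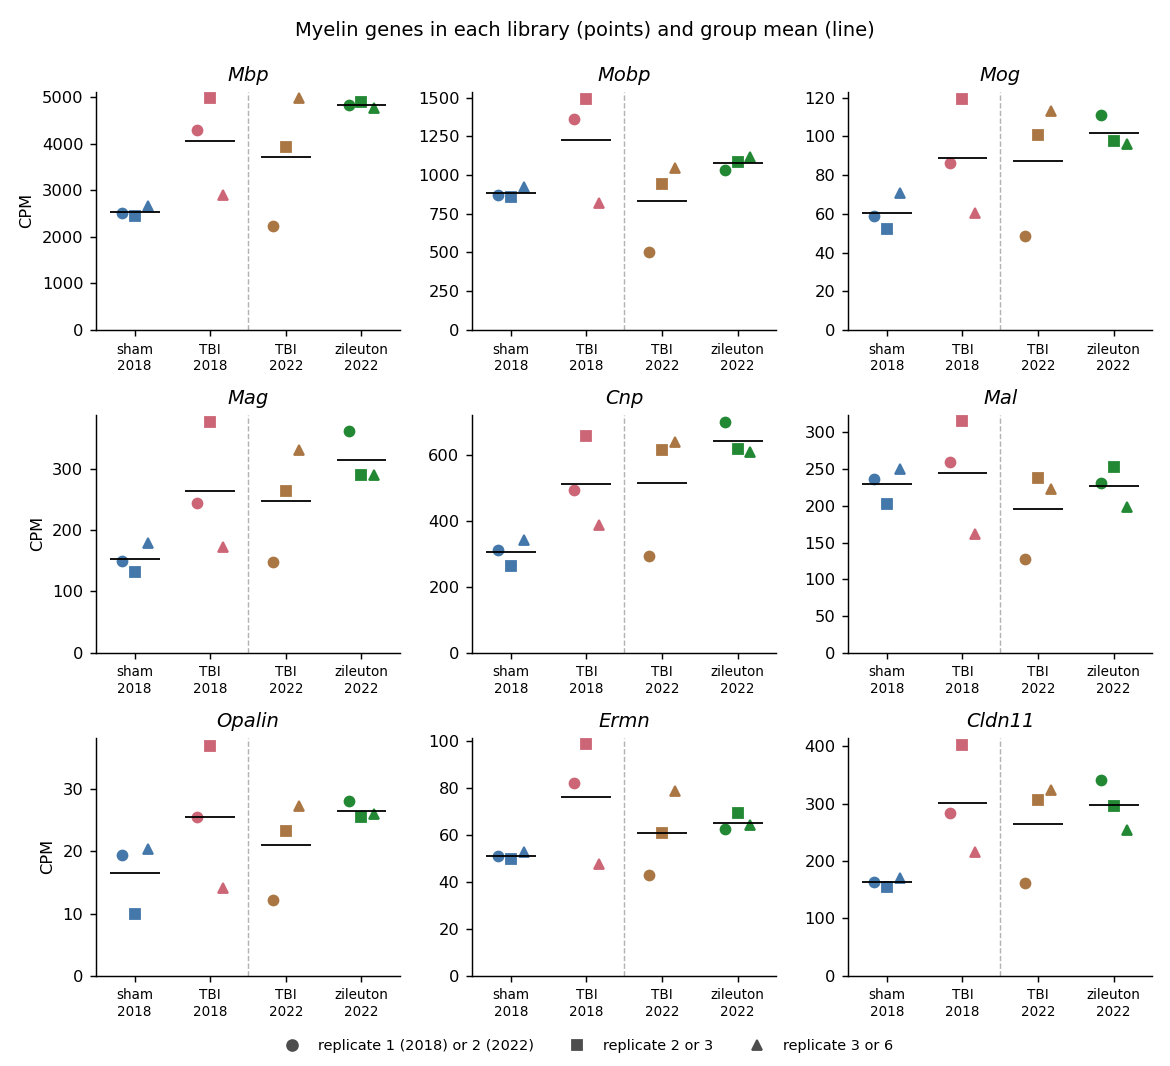
CPM of each of the 9 myelin genes (counts scaled to a library of 1000000, vertical axes, linear, from 0) in the 12 libraries, 1 point per library with the group mean as a line. The dashed line separates the tables of 2018 and 2022, which were not compared with each other. TBI replicate 3 is the lowest of its group in every panel, and the 2022 TBI library numbered 2 is the lowest of 2022 in every panel.

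The start regions of these genes are shown because Myrf, the transcription factor whose own RNA is described below, is known to bind the letters CTGGCAC or CTGGTAC near myelin genes. RefSeq start regions on GRCm38.p6, each 250 bases before to 50 after the listed start, were given for 8 of the 9 genes, and the Mbp region is not used here. Searched on both strands, 4 of the 8 regions held CTGGCAC or CTGGTAC (Mag, Cnp, Mog and Opalin), against 7.1% of 32851 RefSeq start regions of the same length. The letters ACAAAG or ACAATG, a core of the sites that SOX factors bind, stood in 5 of the 8 (Mobp, Mag, Cnp, Opalin and Ermn), against 28.6% of all. No match of either kind was present in the windows of Mal and Cldn11, which had the smallest and the largest estimates of the 9 for TBI over sham. A match is a description of the letters, not a measured site. In the lines below, capitals mark the CTGGCAC match, which begins 68 bases before the start in Mag and 81 bases before it in Cnp. The lines for Cldn11 and Mal hold no capitals. The regions are chr7:30914814-30915113 on the minus strand for Mag (the first of 3 starts listed), chr11:100574689-100574988 on the plus strand for Cnp, chr3:31149670-31149969 on the plus strand for Cldn11 and chr2:127656646-127656945 on the minus strand for Mal.
Mag: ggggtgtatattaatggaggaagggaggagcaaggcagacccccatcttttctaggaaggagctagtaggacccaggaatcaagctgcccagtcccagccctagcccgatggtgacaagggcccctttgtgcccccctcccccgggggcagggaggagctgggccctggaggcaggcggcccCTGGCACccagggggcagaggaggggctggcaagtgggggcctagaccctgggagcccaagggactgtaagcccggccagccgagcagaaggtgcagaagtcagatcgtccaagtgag
Cnp: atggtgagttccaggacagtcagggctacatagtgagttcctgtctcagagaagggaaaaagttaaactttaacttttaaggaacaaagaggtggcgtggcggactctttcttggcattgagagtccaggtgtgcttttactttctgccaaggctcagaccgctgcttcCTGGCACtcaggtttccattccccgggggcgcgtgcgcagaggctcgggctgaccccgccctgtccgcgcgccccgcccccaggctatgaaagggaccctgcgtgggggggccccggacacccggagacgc
Cldn11: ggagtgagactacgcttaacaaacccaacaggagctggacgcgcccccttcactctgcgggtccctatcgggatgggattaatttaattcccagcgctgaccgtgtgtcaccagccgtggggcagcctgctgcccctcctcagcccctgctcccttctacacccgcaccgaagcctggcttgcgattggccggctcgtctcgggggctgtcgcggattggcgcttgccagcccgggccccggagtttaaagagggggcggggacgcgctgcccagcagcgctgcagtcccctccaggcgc
Mal: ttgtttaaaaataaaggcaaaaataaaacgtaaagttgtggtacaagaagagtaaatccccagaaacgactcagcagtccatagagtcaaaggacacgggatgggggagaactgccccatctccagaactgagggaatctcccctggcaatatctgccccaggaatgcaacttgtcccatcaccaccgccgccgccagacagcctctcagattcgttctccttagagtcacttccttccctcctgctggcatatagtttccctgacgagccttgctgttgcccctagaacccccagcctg

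The first comparison asked how injury changed the RNA of the 9 genes. At 7 days after CCI all 9 estimates lay above 0, and 4 genes passed the test as higher, namely Cldn11, Cnp, Mbp and Mag. That is 4 of 9, where 16.8% of the 19536 genes tested were called higher (edgeR's quasi-likelihood test, Benjamini-Hochberg adjusted p under 0.05 over all genes tested; 28.0% were called in either direction). No myelin gene was called lower, and the median log2 fold change of the 9 was 0.62, against 0.017 over all genes tested. Groups did not overlap, with every TBI library above every sham library, for 3 of the 9 (Mbp, Cnp and Cldn11), against 24.6% of all genes, and for 0 of the 9 in the lower direction, against 19.8%. The count of 4 rested on single libraries. It was 7 without TBI replicate 3, 3 without TBI replicate 1 or 2, 2 without sham replicate 3 and 1 without sham replicate 1 or 2. Cldn11 was called in each of these 6 fits.

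Mbp (ENSMUSG00000041607, chromosome 18) encodes myelin basic protein, which binds the inner faces of the membrane together. It stood at 2514, 2447 and 2665 CPM (counts scaled to a library of 1000000) in sham replicates 1, 2 and 3 and at 4295, 4983 and 2909 CPM in the TBI replicates. The sham libraries lay close together, the TBI libraries were spread widely, and the lowest TBI library was still above the highest sham library. Mbp was 1.60-fold higher after TBI (log2 fold change 0.68, standard error 0.17, 95% interval 0.29 to 1.07, adjusted p = 0.0186, edgeR). It was called in 3 of the 6 fits that left out a library, namely those without a TBI library. Mobp (ENSMUSG00000032517, chr9:120149707-120181484) encodes a smaller basic protein of compact myelin. Its CPM were 870, 858 and 925 in sham and 1362, 1489 and 823 after TBI. TBI replicates 1 and 2 lay above all sham libraries and replicate 3 below all of them. The difference did not pass the test (log2 fold change 0.47, standard error 0.19, adjusted p = 0.0975, edgeR).

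Cldn11 (ENSMUSG00000037625, chr3:31149920-31164324) encodes the claudin of the tight junctions that run between the layers of central myelin. It was measured at 163, 154 and 171 CPM in sham mice and at 284, 403 and 216 CPM after TBI. No TBI library reached down to the sham range. The rise was 1.85-fold, the largest of the 9 estimates (log2 fold change 0.89, standard error 0.19, 95% interval 0.45 to 1.32, adjusted p = 0.00896, edgeR).

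Mag and Cnp belong to the uncompacted parts of the sheath. Mag (ENSMUSG00000036634, chr7:30899176-30914873) encodes the adhesion molecule that faces the axon. Its CPM were 150, 131 and 179 in sham and 244, 376 and 173 in TBI, so TBI replicate 3 fell within the sham range and the groups overlapped. The rise of 1.72-fold passed the test narrowly (log2 fold change 0.78, standard error 0.25, adjusted p = 0.0423, edgeR), and it was called in 1 of the 6 fits that left out a library. Cnp (ENSMUSG00000006782, chr11:100574904-100591729) encodes a phosphodiesterase of the cytoplasmic channels, long used as an oligodendrocyte marker. It had 310, 264 and 342 CPM in sham and 492, 655 and 387 CPM after TBI. All 3 TBI libraries lay above the sham libraries, and Cnp was 1.67-fold higher (log2 fold change 0.74, standard error 0.18, adjusted p = 0.0146, edgeR). Cnp was called in 4 of the 6 fits that left out a library.

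Mog (ENSMUSG00000076439, chr17:37010743-37023398) encodes a glycoprotein on the outermost face of the sheath. It was found at 59.0, 52.1 and 70.9 CPM in sham and at 86.4, 120 and 60.7 CPM after TBI. Only TBI replicate 3 lay within the sham range, and the difference did not pass the test (log2 fold change 0.55, standard error 0.22 and adjusted p = 0.0934 by edgeR). Ermn (ENSMUSG00000026830, chr2:58045113-58052864) encodes ermin, a cytoskeletal protein that appears late in differentiation. Its sham values were tight, at 51.0, 49.8 and 52.9 CPM, and its TBI values were 82.1, 98.8 and 47.8 CPM. TBI replicate 3 was below every sham library, and the change missed the threshold (0.57, standard error 0.22, adjusted p = 0.0802, edgeR). Opalin (ENSMUSG00000050121, chr19:41061710-41077113) encodes a glycoprotein restricted to central myelin. It was measured at 19.4, 9.88 and 20.4 CPM in sham and at 25.5, 36.9 and 14.2 CPM after TBI. Here the sham libraries differed among themselves as well, and the standard error of its log2 fold change of 0.62 was the widest, at 0.35 (adjusted p = 0.226, edgeR).

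Mal (ENSMUSG00000027375, chr2:127633226-127656695) encodes a proteolipid that carries cargo in lipid rafts to the myelin membrane. Its CPM were 236, 203 and 251 in sham and 259, 315 and 161 after TBI. TBI replicate 3 was the lowest of all 6 libraries and TBI replicate 2 the highest. The log2 fold change was 0.093, the smallest of the 9 (standard error 0.21, 95% interval -0.38 to 0.56, adjusted p = 0.784, edgeR), and its sign turned without sham replicate 2 (-0.010) or TBI replicate 2 (-0.13). At unadjusted p under 0.05, 7 of the 9 genes were higher, against 22.6% of all genes (39.6% in either direction), and Mal and Opalin were the exceptions.

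**Figure D2:**
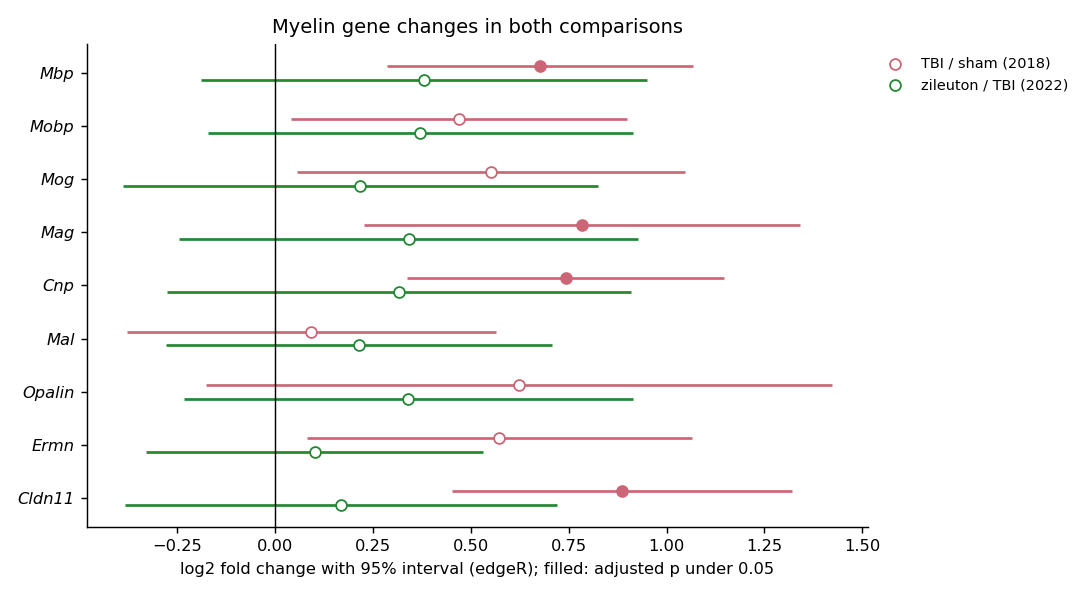
Log2 fold changes of the 9 myelin genes (horizontal axis) with 95% intervals from edgeR, for TBI over sham in 2018 and zileuton over TBI in 2022. Filled points have an adjusted p under 0.05, which Mbp, Mag, Cnp and Cldn11 reached after injury and no gene reached with zileuton.

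The 9 genes ordered the mice alike. TBI replicate 2 was the highest and replicate 3 the lowest injured library for 9 of 9 genes, an order in which 31.6% of all genes tested had replicate 2 highest and 31.3% had replicate 3 lowest. Among sham mice replicate 2 was lowest and replicate 3 highest for 9 of 9, against 34.8% and 31.7% of all genes. The genes share their libraries and a cell type, so these are not 9 separate observations. Summed over the 9, the level was 4374, 4169 and 4676 CPM in sham and 7129, 8476 and 4791 CPM after TBI. TBI replicate 3 thus lay only just above the sham range, while replicates 1 and 2 lay far above it. Expressed as a share of all counts, the genes took 0.41% to 0.461% in sham and 0.721%, 0.88% and 0.481% in the TBI replicates.

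Other cell types also differed between the injured mice. Neuron markers, 10 genes of which 4 were called lower and 0 higher, summed to 11507 to 11678 CPM in sham and to 9746, 6971 and 8389 CPM in TBI replicates 1, 2 and 3. The lowest neuronal sum was in TBI replicate 2, which had the highest myelin sum. That sum is carried by abundant genes such as Camk2a, Snap25 and Syt1, and in the same list Gad1 (269, 334 and 282 CPM) and Gad2 (128, 228 and 123 CPM), which make the transmitter GABA, had their highest injured value in TBI replicate 2. Phagocyte markers, 8 genes all called higher with a median log2 fold change of 5.62, summed to 1500 to 1754 CPM in sham and 9634, 10081 and 12785 CPM after TBI. Their highest sum was in TBI replicate 3, which had the lowest myelin sum. Whether the position of the dissected tissue or its cell makeup had a part in the myelin differences was not tested.

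**Figure D3:**
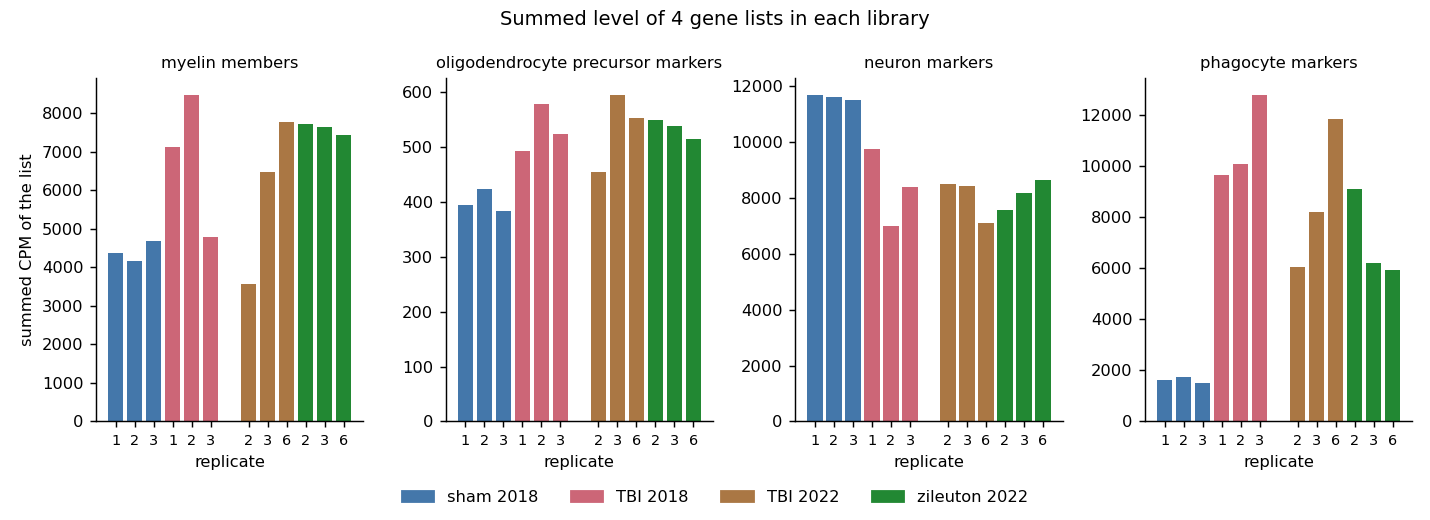
Summed CPM (vertical axes from 0) of the 9 myelin genes and of precursor, neuron and phagocyte markers in each library, 1 bar per library labelled with its replicate or column number. Myelin sums were lowest among injured mice in TBI replicate 3 of 2018 (4791 CPM) and in the 2022 TBI library numbered 2 (3578 CPM), while phagocyte sums of those libraries were the highest and the lowest of their groups.

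To compare levels between genes, values scaled for length were used. In sham mice, deposited FPKM averaged 295 ± 13.5 (SD, n = 3) for Mbp and 127 ± 5.42 for Mobp. Cldn11 (85.4 ± 4.46), Cnp (82.4 ± 10.6) and Mal (81.2 ± 8.57) followed and did not differ beyond their spread, although Cldn11 exceeded Mal in every sham library. Mag (37.0 ± 5.83) and Mog (35.0 ± 5.55) formed the next pair, also within their spread, above Ermn (13.8 ± 0.451) and Opalin (5.52 ± 1.93). Mag exceeded Mog in every sham library. After TBI, Cldn11 (164 ± 54.9 FPKM) and Cnp (143 ± 40.4) had higher means than Mal (90.1 ± 30.0). In the 2022 TBI group, deposited TPM gave Mbp (3979 ± 1364) and Mobp (597 ± 194) the highest means again, followed by Cnp (377 ± 131), Cldn11 (271 ± 84.9), Mag (259 ± 87.7), Mal (130 ± 37.3) and Mog (101 ± 37.6), with Ermn (30.1 ± 7.74) and Opalin (24.0 ± 8.28) lowest. In that group Mbp stood above Mobp, Mag above Mal and Mog above Ermn beyond their spread. The other neighbours in this order did not differ beyond a spread that the genes share, being measured in the same libraries. Within each TBI library of 2022, however, Mobp stood above Cnp, Cnp above Cldn11, Mal above Mog and Ermn above Opalin. Only Cldn11 and Mag changed order between libraries. FPKM and TPM of the batches rest on different tables and were not set against each other.

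Relative to the other myelin genes, Mal moved down after injury. Its share of the summed FPKM of the 9 was 11.0%, 10.1% and 10.8% in sham and 7.60%, 7.47% and 6.91% after TBI. The groups did not overlap, and the TBI libraries, which differed widely in Mal itself, lay close together in this share. Cldn11 moved the other way, from 11.3%, 11.4% and 11.0% to 12.4%, 14.2% and 13.7%, again with no overlap. Mobp fell short in share too, from 16.4%, 17.3% and 16.2% to 16.2%, 14.3% and 14.3%, where the margin between the groups was narrow. The remaining 6 shares overlapped. Such shares are a description, since permuting 3 against 3 libraries exactly gives a two-sided p of 0.1 at best.

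Ratios between genes within a library do not depend on how libraries are scaled, and they were computed after the values had been seen. Mal was lower in TBI relative to each of the 8 other genes with no overlap between the groups. The counts of Mal divided by those of Cldn11 gave 1.45, 1.32 and 1.47 in sham and 0.913, 0.781 and 0.747 after TBI. Mbp over Mal gave 10.7, 12.1 and 10.6 in sham and 16.6, 15.8 and 18.1 after TBI, and Cnp over Mal gave 1.32, 1.30 and 1.37 against 1.90, 2.08 and 2.40. Cldn11 was higher relative to 5 of the 8 other genes and lower relative to 0. Mbp over Mobp was 2.89, 2.85 and 2.88 in sham, almost the same in all 3 mice, and 3.15, 3.35 and 3.54 after TBI. In all, 16 of the 36 pairs of myelin genes had ratios that did not overlap (44.4%), close to the 48.2% among 1596 pairs of 57 other genes of the oligodendrocyte lineage, so the count of pairs alone does not set the 9 apart. Of those 57 genes, 46 were higher relative to Mal after TBI, 0 were lower and 11 overlapped. Relative to Cldn11, 21 of the 57 were lower and 9 were higher.

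**Figure D4:**
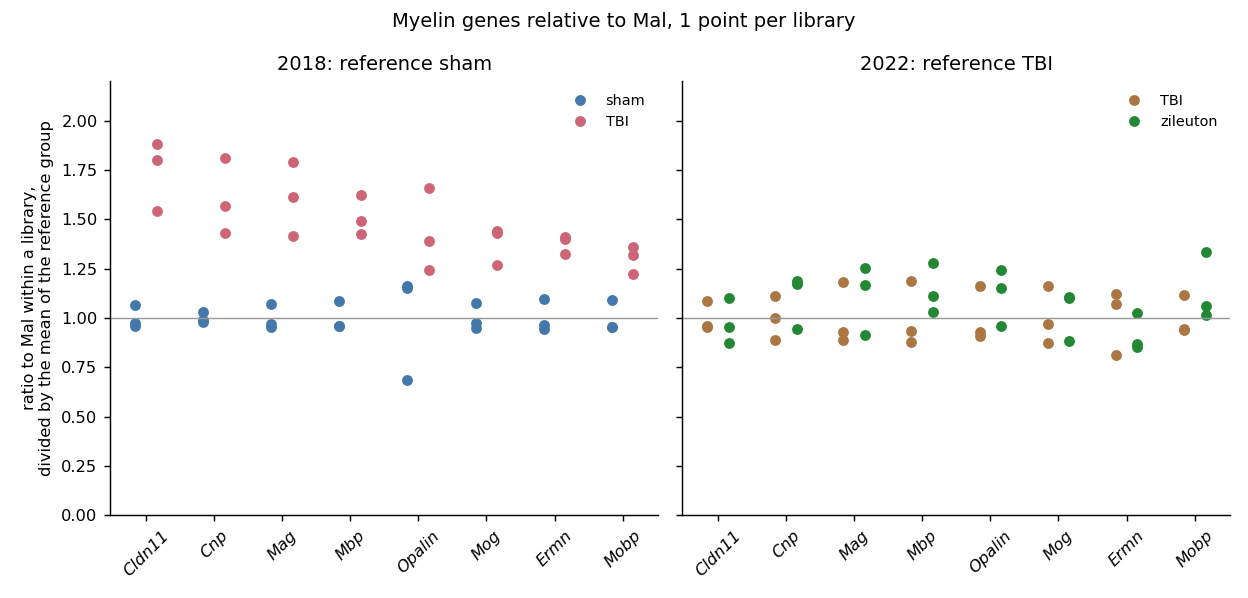
Ratio of each of 8 myelin genes to Mal within a library, divided by the mean ratio of the reference group (vertical axis, linear, from 0), 1 point per library. In 2018 (left) every TBI point lies above every sham point of the same gene. In 2022 (right) the zileuton and TBI points overlap for all 8 genes.

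Other genes of the myelin program were taken from lists. In counts of list genes after TBI, rose and fell mean called higher or lower at an adjusted p under 0.05 by edgeR. Over all genes tested, 16.8% were called higher and 11.2% lower. Of 12 other myelin membrane and junction genes, all 12 had estimates above 0, 4 rose and 0 fell, with a median log2 fold change of 0.53. Those that rose included Gjb1 (1.33), which encodes a gap junction protein, and Pllp (0.72). Plekhb1 (0.38, adjusted p = 0.0825) and Nfasc (0.14, adjusted p = 0.481), which neurons also use at nodes, did not pass. Of 8 myelin lipid enzymes and related genes, 5 rose and 0 fell. They included Ugt8a (0.86), which makes the galactolipids of myelin, and Cers2 (0.80), which makes ceramides with very long chains. Pex5l, which neurons also express, was the one with an estimate below 0 (-0.18, adjusted p = 0.262).

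Among 8 transcription factors of the lineage, 6 rose and 0 fell, with a median log2 fold change of 0.83. Olig1 rose by 0.89 on the log2 scale, with all 3 TBI libraries (127, 161 and 143 CPM) above sham (71.6, 73.1 and 88.1 CPM), and it was not lowest in TBI replicate 3. Myrf stood at 31.7, 28.6 and 37.9 CPM in sham and 60.3, 89.2 and 43.9 CPM after TBI (0.98, adjusted p = 0.0130, edgeR), in the same order of injured mice as the 9 genes. Sox10 rose by 0.76 and Sox8 had an estimate of -0.11 that did not pass. Other markers of mature oligodendrocytes gave 11 of 16 higher and 0 lower. Trf, encoding transferrin, rose by 1.71 and Apod, an apolipoprotein that astrocytes and other cells also make, by 1.99. Enpp2, which choroid plexus also makes at high levels, had 653 CPM in sham replicate 1 and 236 and 256 CPM in the other sham mice, and did not pass (0.75, adjusted p = 0.136).

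Genes of earlier stages were followed in the same way. Of 6 markers of newly formed oligodendrocytes 5 rose and 0 fell, with Bcas1 at 0.84, Itpr2 at 0.68 and Enpp6 at 1.57. Enpp6, a marker of cells that have just begun to differentiate, had 9.28, 7.39 and 7.37 CPM in sham and 23.9, 30.0 and 17.2 CPM after TBI. Of 7 precursor markers 3 rose and 0 fell, with a median of 0.30. The 3 that rose were Gpr17, a receptor of committed precursors (0.96), Vcan (0.67, adjusted p = 0.00115, edgeR) and Cspg4 (0.52, adjusted p = 0.0124, edgeR). Pdgfra, the receptor that defines precursors, was not called (0.11, adjusted p = 0.394, edgeR). Its CPM were 58.0, 57.2 and 51.9 in sham and 55.5, 65.9 and 58.9 after TBI. Ptprz1 missed the threshold (0.30, adjusted p = 0.0529, edgeR). Of the 4 Schwann cell markers tested, Egr2 fell (-0.92, adjusted p = 0.0393), a gene that neurons also express in response to activity, and Prx, with an estimate of 0.24, did not pass. The 4 estimates went both ways, 2 above 0 and 2 below, from -0.92 to 0.86. Without overlap of the groups 1 gene lay higher and 1 lower, and 0 were called higher. The median log2 fold change of that list was -0.26, and its sum lay between 11.9 and 25.0 CPM in sham and between 8.68 and 12.6 CPM after TBI.

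Lists for other brain cells served as a comparison. Snap25 and Syt1, which encode synaptic vesicle release proteins, fell (-0.63 and -0.59), and Camk2a did not pass (-0.40, adjusted p = 0.105). Of 8 astrocyte markers 5 rose and 0 fell, with Gfap at 3.72, Slc1a2 at 0.19 (not called) and Aldoc at 0.12 (not called). All 8 microglia markers rose, with a median of 1.37, Csf1r at 1.81 and Cx3cr1 at 1.91. Among phagocyte markers Apoe, which astrocytes also make, rose by 2.43, Spp1 by 6.84 and Lyz2 by 6.44. Of 7 endothelial markers 5 rose and 0 fell, with Ly6c1 at 0.58, Slco1a4 at 0.33 (not called) and Flt1 at 0.44 (not called). The changes of the myelin genes ran from 0.093 to 0.89, with a median of 0.62. That median was near those of endothelial (0.66) and astrocyte (0.52) markers. It lay above that of precursor markers (0.30) and far below that of phagocyte markers (5.62), a side-by-side reading that was not tested.

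**Figure D5:**
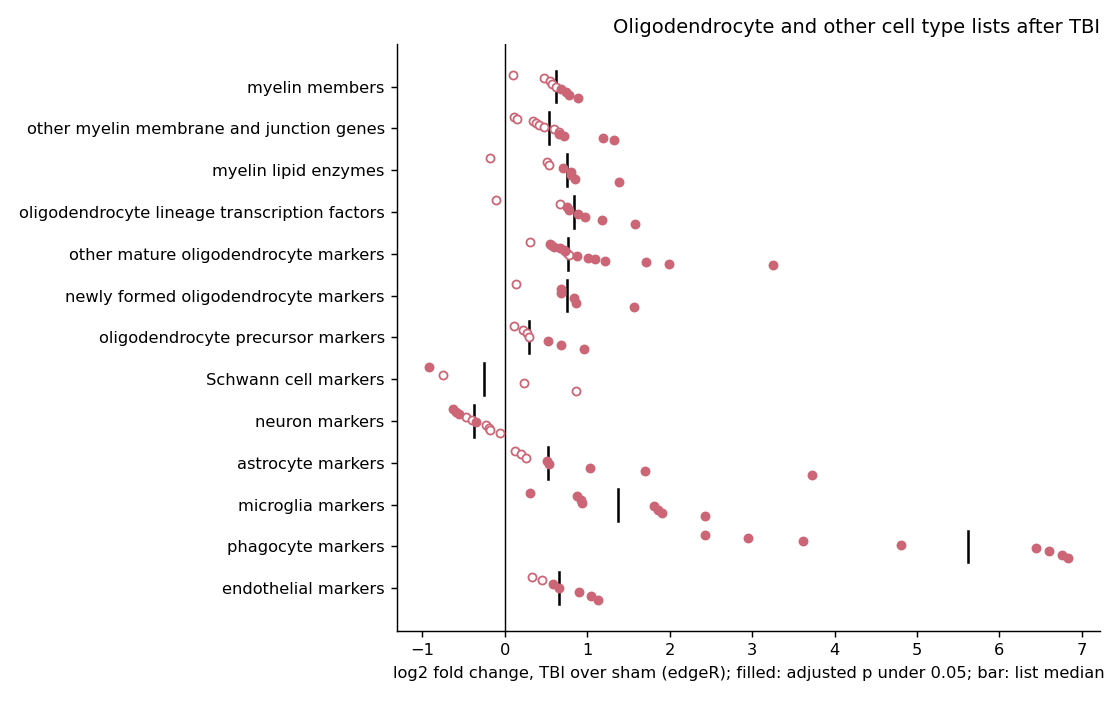
Log2 fold change of TBI over sham (horizontal axis) for each tested gene of 13 lists, 1 point per gene, filled where the adjusted p is under 0.05, with the list median as a bar. The 9 myelin genes lie between 0.093 and 0.89 with a median of 0.62, and phagocyte markers have a median of 5.62.

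The second comparison asked whether zileuton changed the same genes in injured mice. No myelin gene passed the test, at an adjusted or at an unadjusted p under 0.05, and no gene of the 17363 tested did at an adjusted p (0% called, smallest adjusted p 0.186, edgeR's quasi-likelihood test), while 6.83% had an unadjusted p under 0.05 (2.93% as higher). DESeq2 called 26 genes, none of them among the 9. All 9 estimates were above 0, with log2 fold changes from 0.10 (Ermn) to 0.38 (Mbp) and a median of 0.32, against 0.0025 over all genes tested. The 95% intervals reached from -0.39 (lower end for Mog) to 0.95 (upper end for Mbp), which leaves room for a rise or for a small fall at this number of mice. In each of the 9 genes the groups overlapped, where 6.51% of all genes lay higher and 7.04% lower in every zileuton library.

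Each of the myelin genes varied less between the zileuton libraries than between the TBI libraries of 2022. Mbp stood at 2240, 3928 and 4981 CPM in the TBI libraries numbered 2, 3 and 6 and at 4844, 4899 and 4777 CPM in the zileuton libraries numbered 2, 3 and 6. The TBI library numbered 6 was above every zileuton library, and the library numbered 2 was far below the rest. Cnp gave 293, 614 and 638 CPM in TBI and 699, 616 and 609 CPM with zileuton (log2 fold change 0.32, standard error 0.26, adjusted p = 0.790, edgeR). Cldn11 gave 163, 306 and 324 CPM in TBI and 342, 296 and 254 CPM with zileuton (0.17, standard error 0.24, adjusted p = 0.881, edgeR). In both genes the TBI libraries numbered 3 and 6 stood among the zileuton libraries.

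Mobp was measured at 503, 945 and 1047 CPM in TBI and 1031, 1081 and 1115 CPM with zileuton, and Mag at 148, 264 and 330 CPM against 362, 289 and 289 CPM. Mog had 48.6, 101 and 113 CPM in TBI and 111, 97.8 and 96.2 CPM with zileuton. Mal had 128, 238 and 223 CPM in TBI and 231, 253 and 199 CPM with zileuton. In all of these the TBI library numbered 2 was well below the other 5. Opalin, with 12.2, 23.2 and 27.4 CPM in TBI and 28.0, 25.5 and 26.0 CPM with zileuton, showed the same shape. Ermn showed it least, at 43.1, 60.9 and 78.8 CPM in TBI and 62.4, 69.5 and 64.2 CPM with zileuton.

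The TBI library numbered 2 was the lowest of the 6 libraries for 9 of 9 myelin genes, against 20.0% of all genes tested. Without it the log2 fold changes fell to between -0.095 and 0.12, and those of Mog (-0.070), Mal (-0.017), Ermn (-0.095) and Cldn11 (-0.084) turned negative. The summed level of the 9 was 3578, 6479 and 7763 CPM in the TBI libraries and 7710, 7627 and 7429 CPM with zileuton. Phagocyte markers summed to 6051, 8180 and 11851 CPM in the TBI libraries in the same order and to 9096, 6195 and 5930 CPM with zileuton. Among the TBI libraries of 2022, the myelin and phagocyte sums were thus both lowest in number 2 and both highest in number 6, the opposite of TBI replicate 3 of 2018. Neuron markers summed to 8475, 8422 and 7111 CPM in TBI and 7553, 8161 and 8629 CPM with zileuton. The part of these differences in the myelin values was not tested.

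Within libraries of 2022, 5 of the 36 ratios between myelin genes did not overlap (13.9%), near the 14.5% of 1596 pairs of other lineage genes. Mal over Cldn11 was 0.785, 0.778 and 0.688 in TBI and 0.678, 0.854 and 0.783 with zileuton, so the groups overlapped in the ratio that had separated sham from TBI. Ermn was lower in share of the summed TPM with no overlap, from 0.612%, 0.480% and 0.512% to 0.401%, 0.456% and 0.425%. In the other lists no gene passed the adjusted threshold. The medians of the other oligodendrocyte lists lay between 0.093 (precursor markers) and 0.32 (myelin membrane and junction genes). Myrf had an estimate of 0.27 (adjusted p = 0.735).

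The genes most like the 9 were sought over all 12 libraries among 9909 genes with a mean of at least 10 CPM in both tables, by the root mean square distance between log2 CPM centred within each table and the mean profile of the 9. Among the nearest were Lpar1 (0.0927), Gjc3 (0.0931), Gpr37 (0.0976) and Plekhg3 (0.106), where the median gene stood at 0.432. The 9 genes themselves, which make up the profile, stood between 0.0612 for Mog and 0.203 for Mal, with Opalin at 0.195. Lpar1, a lysophosphatidic acid receptor, had 32.2, 24.5 and 28.4 CPM in sham and 44.8, 53.0 and 32.1 CPM after TBI. It had 21.3, 37.3 and 46.6 CPM in TBI of 2022 and 41.0, 40.6 and 37.6 CPM with zileuton. Its lowest and highest injured libraries without zileuton were those of the 9 genes in 2018 and its lowest that of 2022, but its highest sham library was replicate 1 and not replicate 3, and it was picked for its likeness. Gpr37, a receptor of mature oligodendrocytes, had 54.9, 81.7 and 92.1 CPM in TBI of 2022 and 99.4, 98.6 and 90.6 CPM with zileuton.

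Some of these genes overlap others in the annotation used here (GENCODE M21 on GRCm38). On the opposite strand, Cnp overlaps Dnajc7, Ermn overlaps Galnt5, Mbp overlaps the pseudogene Rpl21-ps8 and Mog overlaps Gm22388, and Mobp overlaps Gm38642 on the same strand. Whether counting used the strand is not given in the sources used here, so reads of these overlaps cannot be assigned with certainty.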

How the data were processed

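RNA of mouse brain tissue was sequenced by the authors as paired-end mRNA libraries. For 2018 the authors deposited raw counts per gene and FPKM. For 2022 the authors deposited estimated counts, of which 13.7% of values were not whole, and TPM. The submitters' processing notes name HISAT2, featureCounts, Subread, DESeq2 and GRCm39 without versions or roles. In 2018, 62.3% to 64.4% of counts from 1 to 20 were even, so both reads of a pair may have been counted.

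Estimated counts were rounded, since the plan had assumed counts or estimated counts. Each table was fitted alone with edgeR 4.0.16 under R 4.3.3 (group-wise filterByExpr, TMM scaling, glmQLFit, glmQLFTest and no covariates), adjusted by Benjamini-Hochberg over all genes tested. CPM are scaled by TMM. The biological coefficient of variation was 0.174 in 2018 and 0.149 in 2022. Standard errors are the log2 fold change divided by the root of the F statistic. The fits were also run on simulated counts with known changes, and the outcome is not reported here. Alternatives used limma 3.58.1, DESeq2 1.42.0, other filters and scalings, a replicate block and leaving out each library. Positions came from GENCODE M21 on GRCm38, start regions from RefSeq, and figures from Python 3.11.15 with matplotlib 3.10.9. Tmem2 was matched through a synonym.

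Named genes were the 9, the 3 of each other list with the highest mean CPM in 2018, the 5 nearest in profile, and genes against the direction of their list. Results of some genes that this rule names are not reported here. Gjb1, Pllp, Vcan, Cspg4 and the genes of the closing section beyond these were named after their values were seen. The 9 genes and the 104 genes of the other lists were chosen with earlier results of these data known. The labels list the replicates as separate samples without naming animals, so p-values measure the spread between these samples. No 2 libraries of the same group agreed within sampling noise.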

Additional observations from a re-analysis of the deposited data

How the results depend on the processing

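The 4 myelin genes called after TBI became 3 to 6 in 11 alternatives of scaling, tool, filter, unit and read pairs, and 0 with limma on log2(FPKM + 1) without a filter and with the two-sided equal-variance test on FPKM, which also lowered the genes called from 5479 to 2625. Leaving out a library gave 1 to 7 myelin genes and 3848 to 4956 genes. Cldn11 lost its call in 2 of 13 alternatives and in 0 of 6 fits that left out a library, and Mag kept its call in 5 of 13 and 1 of 6. The Mal estimate after TBI ranged from -0.13 to 0.32 with a library left out, turning to -0.010 without sham replicate 2 and to -0.13 without TBI replicate 2. For zileuton, no alternative called a myelin gene. Genes called there rose from 0 to 26 with DESeq2, to 4 with all genes of at least 1 count, to 4 with limma on log2(TPM + 1) and to 3 on log2(TPM + 0.1). With a library of 2022 left out, estimates ranged from -0.070 to 0.44 for Mog, from -0.017 to 0.38 for Mal, from -0.095 to 0.33 for Ermn and from -0.084 to 0.34 for Cldn11, and each lowest value was the one without the TBI library numbered 2. The causes were not tested. On summed CPM, which is not divided by gene length, 34 of 36 mean shares moved by more than 1 SD, and 17 of 18 differences between groups kept their direction (all but Mag with zileuton). The share of Mal averaged 5.21% in sham and 3.57% after TBI, and it was also lower there without overlap.

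The deviations of same-numbered libraries correlated at -0.0228, -0.0944 and -0.0326 in 2018 and at -0.28, 0.0628 and -0.282 in 2022. Those of different-numbered libraries correlated at -0.104 to 0.13 in 2018 and at -0.073 to 0.313 in 2022. Deviations within groups of 3 cannot show whether replicate numbers paired the samples. A replicate block called 3 myelin genes and 4337 genes after TBI and 0 of either with zileuton. With 3 mice per group, removing a library leaves 2 in its group.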

Other observations

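With zileuton, 4 of the 12 other myelin membrane and junction genes lay above all TBI libraries of 2022, against 6.51% of all genes tested, although none passed edgeR's adjusted threshold (adjusted p = 0.713 or higher). They were chosen after their values were seen. Nfasc, which oligodendrocytes and neurons use at nodes and paranodes, had 307, 409 and 360 CPM in the TBI libraries numbered 2, 3 and 6 and 519, 438 and 466 CPM with zileuton (log2 fold change 0.40, standard error 0.12). Cntn2, an adhesion molecule beside the node, had 139, 180 and 170 CPM against 206, 190 and 193 CPM (0.27, standard error 0.10). Tmem88b had 51.6, 77.7 and 80.6 CPM against 102, 94.0 and 92.8 CPM (0.46), and Tspan2 had 80.1, 156 and 156 CPM against 167, 167 and 158 CPM (0.33). After injury in 2018, Nfasc and Cntn2 had estimates of 0.14 and 0.11 and their groups overlapped.

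Klk6, a protease of mature oligodendrocytes, had the highest rise of the oligodendrocyte lists after TBI, from 2.33, 3.80 and 5.39 CPM in sham to 25.6, 49.4 and 35.2 CPM (log2 fold change 3.25 with a standard error of 0.32, adjusted p = 0.000152, edgeR). It was chosen after its values were seen. Unlike the 9 myelin genes, it was lowest in TBI replicate 1 and not in replicate 3. With zileuton its estimate was -0.04 (adjusted p = 0.974).

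Tcf7l2, a transcription factor that is transient in differentiating oligodendrocytes and also expressed by thalamic neurons, had 8.86, 23.2 and 6.85 CPM in TBI replicates 1, 2 and 3 and 3.57 to 4.88 CPM in sham (1.58, adjusted p = 0.0212, edgeR). Gad2, a gene of GABA neurons, was also highest in TBI replicate 2 (TBI replicates at 128, 228 and 123 CPM). It too was chosen after its values were seen.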
